A study of Homo sapiens with 6 samples.

Results

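Ubiquinone (coenzyme Q) is the lipid electron carrier of the inner mitochondrial membrane and, in its reduced form, a radical-trapping antioxidant of other membranes. This account covers 10 genes: the 9 synthesis genes PDSS1, PDSS2, COQ2, COQ3, COQ4, COQ5, COQ6, COQ7 and COQ9, and AIFM2, whose product (also called FSP1) reduces ubiquinone outside mitochondria. They were chosen by symbol from a table of 11314 protein-coding genes; the rule uses no value, but it was set with earlier results of these data known. All 10 were listed, and all 10 were among the 11061 genes tested, those averaging 0.5 FPKM or more.

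The values come from 6 messenger RNA libraries of SNU-668, an established human gastric cancer line, here an erastin-resistant subline. Erastin blocks cystine import and triggers ferroptosis, a death by iron-dependent lipid peroxidation. The titles name SPIN1 in 3 libraries ("SPIN1-titled" below) and NC in 3 ("NC-titled"). They were read as a short hairpin RNA against SPIN1 and a control hairpin, which the titles themselves do not state. Resistance to erastin was common to both groups. FPKM relates the fragments of a gene to its length and to all mapped fragments, so it is a level per length. The labels contradict each other. The genotype entries call the SPIN1-titled libraries wild type and the NC-titled ones the knockdown, and the design text names ALKBH3 as the target. The prefix RLS3 in all titles has no explanation in the labels. Groups here follow the titles, and "higher" and "lower" refer to the SPIN1-titled libraries compared with the NC-titled ones. No label gives the number of clones or of cultures, so replicate spread, and with it every p-value, may be technical.

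Synthesis starts with a long isoprenoid tail, built from mevalonate pathway units by the PDSS1-PDSS2 enzyme. COQ2 joins the tail to a benzoquinone precursor, and the ring is then hydroxylated and methylated by a set of mitochondrial proteins that assemble as complex Q. AIFM2 is anchored to membranes by N-myristoylation and uses NAD(P)H to regenerate the reduced quinone, which stops lipid peroxidation independently of glutathione.

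SPIN1 itself was at 0.322, 6.18 and 7.97 FPKM in the NC-titled libraries and at 0.324, 0.629 and 2.49 FPKM in the SPIN1-titled ones. The groups overlapped through NC-titled replicate 1, so its level does not check the labels (log2 difference -1.17, limma adjusted p = 0.307; without that replicate -2.03 and 0.0301). The depth of the libraries is unknown, since only FPKM values were given. Mitochondrially encoded genes (13 in all) took 34.3% to 38.4% of the summed FPKM in NC-titled libraries and 32.2% to 34.9% in the SPIN1-titled ones. Of the epithelial markers 3 of 5 had values, and their summed FPKM was 95.4 to 114 in NC-titled libraries and 140 to 241 in the SPIN1-titled ones. EPCAM, the epithelial adhesion molecule, was low throughout (0.313 to 1.44 FPKM), and CDH1 and KRT19 were not analysed here. Of the fibroblast markers 3 of 5 had values, at a summed 176 to 202 and 182 to 261 FPKM, nearly all of it COL3A1. Low as they were, the other pair was called higher, DCN at 4.55 against 1.86 FPKM (limma adjusted p = 0.00902) and LUM at 9.95 against 3.54 FPKM (limma adjusted p = 0.00506), each in all 6 fits without 1 library. The keratin genes were higher too, KRT8 2.25-fold (limma adjusted p = 0.0153) and KRT18 1.64-fold (limma adjusted p = 0.0399), in 5 and 1 of those fits. Of the leukocyte markers 2 of 4 had values, at 145 to 157 and 79.1 to 142 FPKM, nearly all CD68, while LYZ was lower at 0.349 against 0.995 FPKM (limma adjusted p = 0.00875). Of the endothelial markers 1 of 3 had values (CDH5), at 1.40 to 1.73 and 0.348 to 1.22 FPKM. The part of these markers in the results below was not tested.

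The ubiquinone genes did not move as a block. PDSS1 and COQ3 were higher and COQ9 was lower in the SPIN1-titled libraries at an adjusted p under 0.05 (limma, two-sided, Benjamini-Hochberg over all 11061 genes), and 7 did not pass that threshold. AIFM2, PDSS2 and COQ5 were on the lower side and missed it narrowly, with limma adjusted p from 0.0524 to 0.0550. Among all genes tested, 17.3% were called higher, 10.3% lower and 27.6% in either direction, so 3 calls among 10 genes is a share near that of the whole table. The 3 libraries of a group lay wholly to one side of the other 3 for 7 of the 10 genes, 3 higher and 4 lower, against 27.2% higher, 18.8% lower and 46.0% together of all genes. The median log2 difference of the 10 genes was 0.11, against 0.05 for all genes tested.

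**Figure D1:**
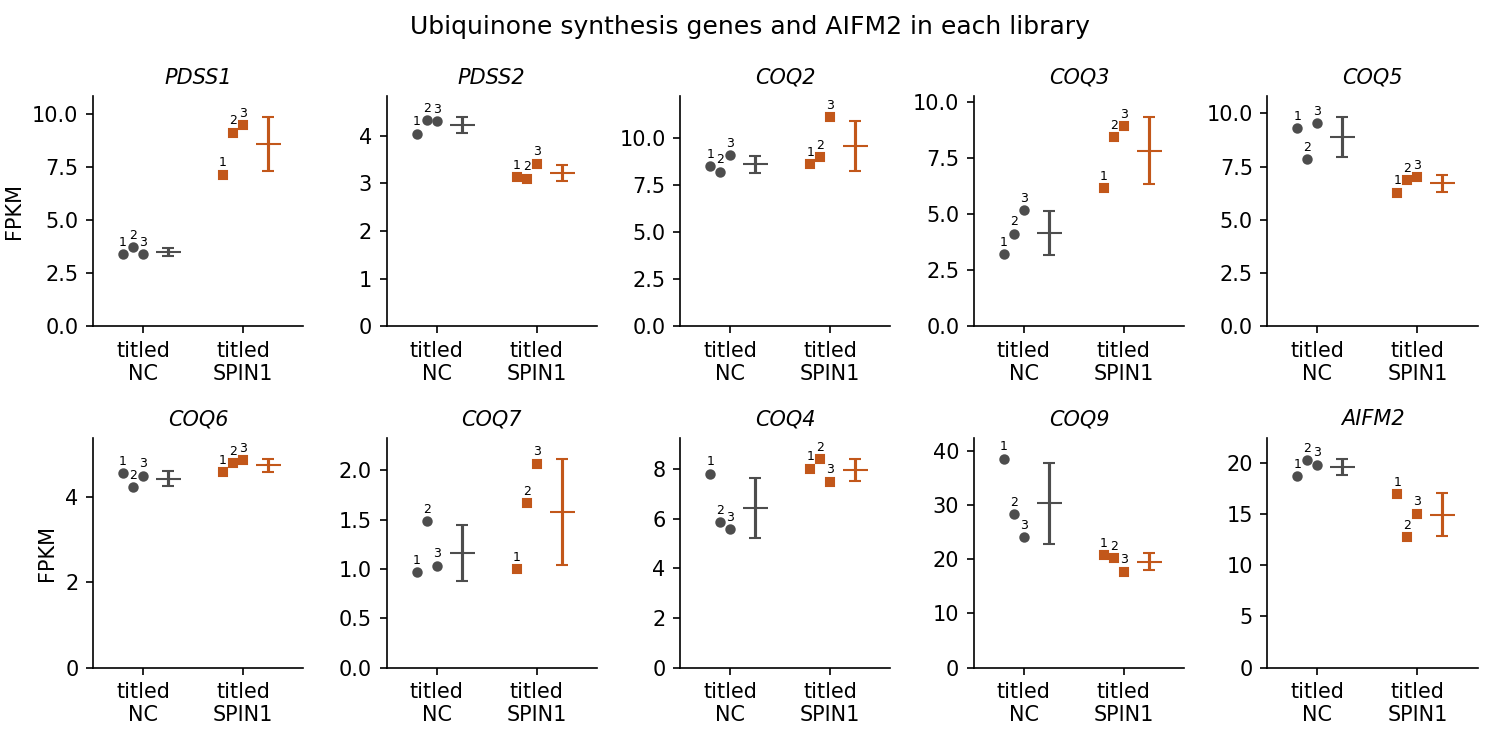
FPKM of the 10 genes in each library (circles, titled NC; squares, titled SPIN1; the small digit is the replicate number), with the group mean and SD (n = 3) to the right of the points; every axis starts at 0. PDSS1 and COQ3 lie higher in the SPIN1-titled libraries, and COQ9, COQ5, PDSS2 and AIFM2 lie lower, without overlap of the groups.

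The largest difference was in a subunit of the tail-building enzyme, PDSS1; that of its partner PDSS2 had the opposite sign and did not pass. PDSS1 (ENSG00000148459.15_3, hg19 chr10:26986588-27035727, plus strand), its catalytic subunit, was at 3.40, 3.74 and 3.41 FPKM in the NC-titled libraries and at 7.15, 9.14 and 9.49 FPKM in the SPIN1-titled ones. Every SPIN1-titled library was well above every NC-titled library. The means were 3.51 ± 0.192 and 8.59 ± 1.26 FPKM (SD with n = 3 each), a 2.45-fold rise. On the log2(FPKM + 1) scale the difference was 1.08 (SE 0.13, limma adjusted p = 0.00198), and 3.47% of tested genes had a higher one. In bulk RNA, more transcript per cell and more cells with the transcript cannot be told apart, here and for every gene below.

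PDSS2 (ENSG00000164494.11_2, hg19 chr6:107473761-107780768, minus strand), the partner subunit that the enzyme also needs, was at 4.04, 4.32 and 4.31 FPKM in the NC-titled libraries and at 3.13, 3.10 and 3.41 FPKM in the SPIN1-titled ones. The groups did not overlap, and the spread inside each was narrow. The log2 difference was -0.31 (95% interval -0.54 to -0.08), which did not pass (limma adjusted p = 0.0524).

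Within each library the ratio of PDSS1 to PDSS2 was 0.841, 0.865 and 0.791 in the NC-titled libraries, replicates 1 to 3. It was 2.29, 2.95 and 2.78 in the SPIN1-titled ones. The FPKM of PDSS1 was thus below that of PDSS2 in all 3 NC-titled libraries and above it in all 3 SPIN1-titled ones. The mean ratio was 3.21 times as high in the SPIN1-titled libraries (two-sided exact permutation p = 0.1, the smallest that 3 against 3 libraries allow). Since PDSS1 lay higher and PDSS2 lower without overlap, the ratio had to separate as well. That p therefore adds nothing to the results of the single genes. A ratio within a library does not depend on how the libraries were scaled, though it was looked at after the values of both genes were known.

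The promoters of this pair and of AIFM2 are shown because PDSS1 and PDSS2 encode partners in the same enzyme with differences of opposite sign, of which that of PDSS1 passed, and because AIFM2 is the gene outside the synthesis pathway. Each window runs from 250 bases before to 50 bases after the start site (RefSeq, GRCh38.p14), and 8 of the 10 genes had such windows. Capitals mark any of these motifs on either strand: TGACNNNGC (the core of the antioxidant response element bound by NRF2), TGAGTCA (AP-1), TTTCCCGC and TTTGGCGC (E2F), and CCAAT.
PDSS1, chr10:26697451-26697750, plus strand: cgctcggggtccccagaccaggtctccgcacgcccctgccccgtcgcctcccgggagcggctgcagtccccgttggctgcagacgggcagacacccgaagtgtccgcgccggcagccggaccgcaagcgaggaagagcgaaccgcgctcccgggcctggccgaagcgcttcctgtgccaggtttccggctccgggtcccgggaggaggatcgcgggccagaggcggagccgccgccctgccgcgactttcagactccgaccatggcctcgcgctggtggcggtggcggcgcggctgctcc
PDSS2, chr6:107459515-107459814, minus strand: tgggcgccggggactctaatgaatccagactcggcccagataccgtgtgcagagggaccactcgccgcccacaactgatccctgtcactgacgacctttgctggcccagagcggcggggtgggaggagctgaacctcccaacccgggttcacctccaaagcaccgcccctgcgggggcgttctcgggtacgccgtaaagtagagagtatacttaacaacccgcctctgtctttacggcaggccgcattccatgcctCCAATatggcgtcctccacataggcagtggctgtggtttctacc
AIFM2, chr10:70132776-70133075, minus strand: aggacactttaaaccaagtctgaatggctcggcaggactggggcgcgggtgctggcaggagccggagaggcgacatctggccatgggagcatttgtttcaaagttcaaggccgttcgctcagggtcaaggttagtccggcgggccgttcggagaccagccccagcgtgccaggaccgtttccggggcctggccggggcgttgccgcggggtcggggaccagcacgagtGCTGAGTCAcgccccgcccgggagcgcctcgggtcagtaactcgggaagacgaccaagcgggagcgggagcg

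The PDSS1 window held none of these motifs. The PDSS2 window held a single CCAAT, which lay after the start site. CCAAT was present in 34.6% of all 35116 windows. In the AIFM2 window the antioxidant response core, read on the opposite strand, overlapped an AP-1 motif. The first base of the pair lay 22 bases before the start site. The core occurred in 13.3% and the AP-1 motif in 4.95% of all windows, while the E2F motifs occurred in 1.63% (TTTCCCGC) and 0.652% (TTTGGCGC). Among the 8 genes with windows, the core was also found for COQ6 and COQ7, and CCAAT for COQ2, COQ6 and COQ7. These matches are descriptions of sequence and show no binding.

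COQ2 (ENSG00000173085.13_3, hg19 chr4:84182689-84206067, minus strand), the prenyltransferase that joins head and tail, was at 8.50, 8.20 and 9.07 FPKM in the NC-titled libraries and at 8.61, 8.995 and 11.1 FPKM in the SPIN1-titled ones. The groups overlapped, and only SPIN1-titled replicate 3 stood above the rest. The log2 difference was 0.13 with a 95% interval of -0.15 to 0.41 (limma adjusted p = 0.443).

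Of the ring methyltransferases, COQ3 was called higher and COQ5 did not pass. COQ3 (ENSG00000132423.11_3, hg19 chr6:99817276-99842080, minus strand), which methylates ring oxygens, was at 3.22, 4.13 and 5.19 FPKM in the NC-titled libraries. In the SPIN1-titled libraries it was at 6.15, 8.44 and 8.91 FPKM, without overlap. The means of 4.18 ± 0.983 and 7.83 ± 1.48 FPKM (SD with n = 3 each) make a 1.87-fold rise, and the groups differed by 0.77 on the log2 scale (SE 0.19; limma adjusted p = 0.0247). That call was lost in 4 of the 6 fits that left out 1 library (limma adjusted p up to 0.0802): without NC-titled replicate 1 or 2, and without SPIN1-titled replicate 2 or 3.

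COQ5 (ENSG00000110871.14_3, hg19 chr12:120941077-120972237, minus strand), which methylates a ring carbon, was at 9.30, 7.85 and 9.54 FPKM in the NC-titled libraries and at 6.28, 6.85 and 7.02 FPKM in the SPIN1-titled ones. The groups lay apart, the nearest values being NC-titled replicate 2 and SPIN1-titled replicate 3. The log2 difference was -0.36 (95% interval -0.62 to -0.10, limma adjusted p = 0.0526) and did not pass.

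Within each library the ratio of COQ3 to COQ5 was 0.347, 0.526 and 0.543 in the NC-titled libraries and 0.979, 1.23 and 1.27 in the SPIN1-titled ones. The mean ratio was 2.46 times as high in the SPIN1-titled libraries (two-sided exact permutation p = 0.1). This pair, too, was set side by side after its values were seen. COQ3 lay higher and COQ5 lower without overlap, so this p was fixed by the single genes as well. A further ratio, COQ9 to COQ7, was 39.87, 19.08 and 23.29 in the NC-titled libraries. In the SPIN1-titled ones it was 20.8, 12.13 and 8.555, with overlapping groups (two-sided exact permutation p = 0.2).

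**Figure D2:**
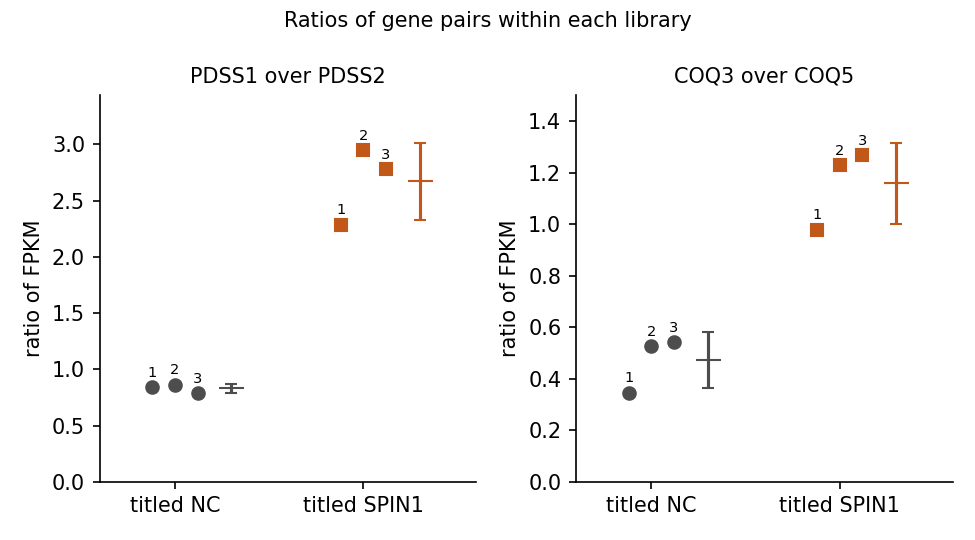
Ratio of FPKM of PDSS1 to PDSS2 (left) and of COQ3 to COQ5 (right) within each library, with group mean and SD (n = 3) beside the points and the replicate number above each point; axes start at 0. PDSS1 over PDSS2 lies between 0.791 and 0.865 in the NC-titled libraries and between 2.29 and 2.95 in the SPIN1-titled ones.

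The ring hydroxylases showed no difference past the threshold. COQ6 (ENSG00000119723.16_3, hg19 chr14:74416629-74430373, plus strand), a flavin-dependent monooxygenase, was at 4.56, 4.24 and 4.51 FPKM in the NC-titled libraries and at 4.58, 4.80 and 4.87 FPKM in the SPIN1-titled ones. The groups just failed to overlap, and the gene varied least between groups of all 10, with a log2 difference of 0.08 (95% interval -0.14 to 0.30, limma adjusted p = 0.546). COQ7 (ENSG00000167186.10_3, hg19 chr16:19078921-19091417, plus strand), the hydroxylase of the step before last, had the lowest level of the 10. It was at 0.966, 1.49 and 1.03 FPKM in the NC-titled libraries and at 0.998, 1.66 and 2.07 FPKM in the SPIN1-titled ones. The groups overlapped, and at this level the added 1 FPKM makes the log2 difference of 0.24 (95% interval -0.19 to 0.67, limma adjusted p = 0.372) an understatement.

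COQ9 (ENSG00000088682.13_3, hg19 chr16:57481337-57495187, plus strand), a lipid-binding protein that presents the substrate to COQ7, had the highest FPKM of the 10 genes. It was at 38.5, 28.3 and 24.0 FPKM in the NC-titled libraries and at 20.7, 20.2 and 17.7 FPKM in the SPIN1-titled ones. The NC-titled libraries were widely spread, with replicate 1 far above the others, yet each lay above every SPIN1-titled library. The means were 30.3 ± 7.44 and 19.5 ± 1.63 FPKM (SD with n = 3 each), 1.55-fold lower, with a log2 difference of -0.58 (SE 0.17, limma adjusted p = 0.0486). The call was at the edge of the threshold. It held in 1 of the 6 fits without 1 library, that without NC-titled replicate 3, and the limma adjusted p was up to 0.130 in the others. Without NC-titled replicate 1 the difference was -0.40 (limma adjusted p = 0.0733), and without both libraries numbered 1 it was -0.45 (limma adjusted p = 0.0658). COQ9 alone made up 36.0% to 48.0% of the summed FPKM of the 9 synthesis genes in the NC-titled libraries and 24.6% to 31.6% in the SPIN1-titled ones.

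COQ4 (ENSG00000167113.10_2, hg19 chr9:131084815-131096351, plus strand), which is needed for the assembly of complex Q, was at 7.82, 5.88 and 5.58 FPKM in the NC-titled libraries and at 8.02, 8.40 and 7.50 FPKM in the SPIN1-titled ones. Titled NC replicate 1 lay among the SPIN1-titled libraries. The log2 difference was 0.28 (95% interval -0.04 to 0.61, limma adjusted p = 0.169). Without NC-titled replicate 1 it was 0.41 (limma adjusted p = 0.0462), and with library weights 0.41 (limma adjusted p = 0.010). The weights were 0.486, 3.12 and 1.17 for NC-titled replicates 1 to 3 and 0.314, 3.57 and 0.503 for the SPIN1-titled ones. The weighted fit thus rested mostly on replicate 2 of each group and gave NC-titled replicate 1 little weight. Without both libraries numbered 1, 3 of the 10 genes were higher (PDSS1, COQ3 and COQ4) and 1 lower (AIFM2), where 16.8% and 10.5% of all genes were called.

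AIFM2 (ENSG00000042286.14_2, hg19 chr10:71857979-71892690, minus strand) was at 18.7, 20.3 and 19.8 FPKM in the NC-titled libraries and at 16.9, 12.8 and 15.03 FPKM in the SPIN1-titled ones. All 3 SPIN1-titled libraries were below all 3 NC-titled, with SPIN1-titled replicate 1 nearest to them. The means differed 1.31-fold, and the log2 difference was -0.38 (95% interval -0.66 to -0.10, limma adjusted p = 0.0550), short of the threshold. Of 17 alternative fits 6 put it past: median scaling, scaling to the nuclear genes, quantile normalization, library weights, and the fits without SPIN1-titled replicate 1 (log2 difference -0.47, limma adjusted p = 0.0235) and without both libraries numbered 1. Over all 17 the difference ran from -0.56 to -0.28 and the limma adjusted p from 0.00200 to 0.161. Both the -0.56 and the 0.00200 came from the fit with library weights, which rested mostly on replicate 2 of each group.

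Coding genes on the opposite strand overlap 6 of the 10 genes in the GENCODE 29 annotation (PDSS1, COQ4, COQ5, COQ6, COQ9 and AIFM2), and noncoding genes on the same strand overlap PDSS1, COQ5 and COQ9. The libraries were strand-specific, but the sources used here do not say whether strand was used in quantification. For AIFM2 that neighbour is H2AFY2, which encodes a macroH2A histone variant (hg19 chr10:71812552-71872036, plus strand) and covers the end of AIFM2. H2AFY2 was lower as well, at 8.53 ± 1.34 against 14.5 ± 0.631 FPKM (means with SD, n = 3 each; limma adjusted p = 0.00768). The neighbour of PDSS1, the actin regulator gene ABI1 (hg19 chr10:27035522-27150016, minus strand), shares only a short stretch at the end of PDSS1. ABI1 was at 10.3 ± 1.80 against 11.1 ± 1.05 FPKM (limma adjusted p = 0.625). The neighbour of COQ9, CIAPIN1 of iron-sulfur cluster assembly (hg19 chr16:57462081-57481440, minus strand), shares only a short stretch at the start of COQ9. CIAPIN1 was at 21.5 ± 0.908 against 17.8 ± 0.894 FPKM (limma adjusted p = 0.0696), the other way from COQ9. The neighbour of COQ5, the ubiquitin ligase gene RNF10, was at 17.2 ± 0.524 against 20.7 ± 1.30 FPKM, lower without overlap like COQ5, and did not pass (log2 difference -0.25, limma adjusted p = 0.0762). Neither the neighbour of COQ4 (TRUB2, limma adjusted p = 0.364) nor those of COQ6 (ENTPD5, 0.673, and FAM161B, 0.109) passed. The part of shared reads in these values was not tested.

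**Figure D3:**
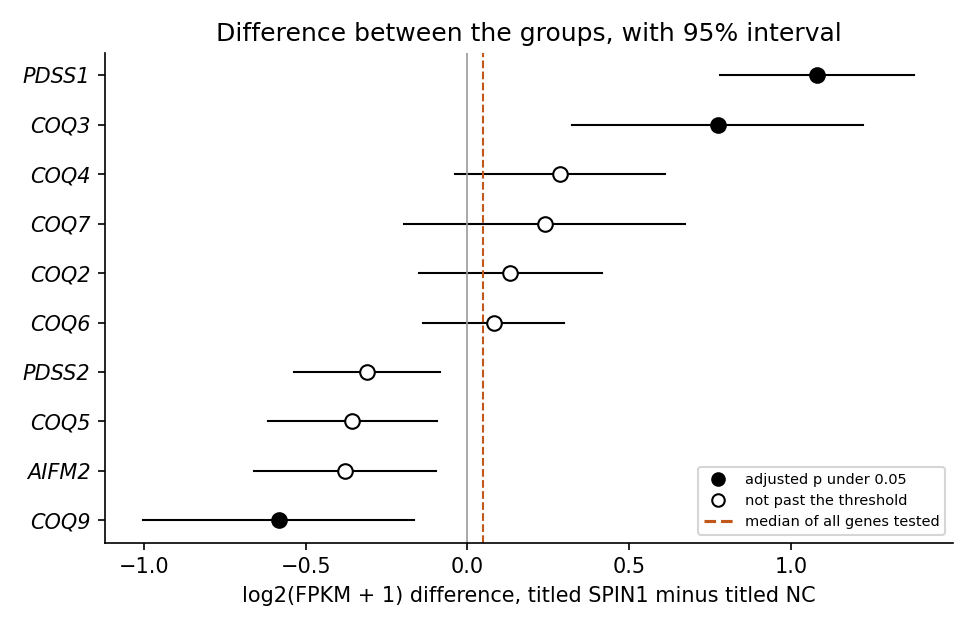
Difference of log2(FPKM + 1), titled SPIN1 minus titled NC, for the 10 genes, with limma's 95% interval before adjustment for the number of genes tested; filled circles passed an adjusted p of 0.05. PDSS1 (1.08) and COQ3 (0.77) lie highest and COQ9 (-0.58) lowest, while the dashed line marks the median of all genes tested (0.05).

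The order of levels differed between the groups. In the NC-titled libraries, COQ9 led at 30.3 FPKM, followed by AIFM2 at 19.6, COQ5 at 8.90, COQ2 at 8.59, COQ4 at 6.42, COQ6 at 4.44, PDSS2 at 4.22, COQ3 at 4.18, PDSS1 at 3.51 and COQ7 at 1.16 FPKM. Neighbours from COQ6 down to PDSS1 overlapped in their libraries, as did COQ5 and COQ2. In the SPIN1-titled libraries, PDSS1 stood in the fourth place, not last but for COQ7, and COQ5 had left the third place for the seventh. There COQ2, PDSS1, COQ4 and COQ3, at 9.57, 8.59, 7.98 and 7.83 FPKM, each overlapped the next in order, and COQ3 overlapped COQ5 below it. COQ5 did not overlap COQ6. COQ9 and AIFM2 stayed first and second without overlap, and COQ7 last. The summed FPKM of the 9 synthesis genes was 71.7 ± 7.48 in the NC-titled libraries and 69.8 ± 3.56 in the SPIN1-titled ones (SD, n = 3 each), with overlapping groups. Without COQ9 the sum was 41.4 ± 1.44 and 50.2 ± 4.83 FPKM, and the groups did not overlap. COQ9 was left out after its values were seen, and the remaining sum includes PDSS1 and COQ3, both called higher. That separation is therefore a description and not a further result.

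Of 10 further factors of ubiquinone synthesis and handling, limma called 2 higher and 0 lower, and 8 did not pass, with a median log2 difference of 0.16. With 17.3% of all genes called higher and 10.3% lower, that share is near the whole table's. HPDL, a mitochondrial dioxygenase that makes a precursor of the quinone head group, was at 4.22 ± 1.20 against 1.35 ± 0.293 FPKM (means with SD, n = 3 each), 1.13 higher on the log2 scale (limma adjusted p = 0.00732). FDXR, the reductase that feeds electrons to mitochondrial ferredoxins, including those that serve COQ6, was at 9.67 ± 0.893 against 5.90 ± 0.368 FPKM (limma adjusted p = 0.00693). These 2 calls held in each of the 6 fits without 1 library. The kinase-like regulators COQ8A and COQ8B differed by -0.27 and 0.35 on the log2 scale, and neither passed (limma adjusted p = 0.182 and 0.162).

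Genes that supply isoprenoid units were mostly higher. Of 8 genes from acetyl-CoA to the prenyl diphosphates, limma called 5 higher and 0 lower, and 3 did not pass, with a median log2 difference of 0.80 against 0.05 for all genes tested, of which 17.3% were called higher. ACAT2, the cytosolic thiolase at the start of the mevalonate pathway, was at 17.5 ± 2.13 against 4.31 ± 0.780 FPKM, 4.06-fold higher (means with SD, n = 3 each; limma adjusted p = 0.000721). MVD, the diphosphomevalonate decarboxylase, was 2.65-fold higher (limma adjusted p = 0.00269) and the isomerase IDI1 2.63-fold higher (limma adjusted p = 0.00410). FDPS, which makes the farnesyl diphosphate that primes the tail, was at 28.9 ± 1.84 against 19.0 ± 0.717 FPKM (limma adjusted p = 0.00500). The calls of these 4 genes held in each fit without 1 library. MVK, the mevalonate kinase, was also called higher, in 3 of these 6 fits. GGPS1, the geranylgeranyl diphosphate synthase, was the exception in sign, at 6.93 against 9.86 FPKM, and did not pass (limma adjusted p = 0.128). In the branches that draw on farnesyl diphosphate, 2 of 5 genes were higher and 0 lower (17.3% and 10.3% of all genes), with a median of 0.01. They were FDFT1, the squalene synthase (15.2 ± 0.973 against 11.4 ± 1.03 FPKM, limma adjusted p = 0.0316), and FNTB, a farnesyltransferase subunit (6.24 ± 0.697 against 4.51 ± 0.429 FPKM, limma adjusted p = 0.0483). FNTB passed in none of the 6 fits without 1 library (limma adjusted p 0.0659 to 0.164) and FDFT1 in 2 of them (up to 0.106). Neither passed after median scaling, quantile normalization or scaling to the nuclear genes (limma adjusted p 0.0518 to 0.0680 for FDFT1 and 0.0656 to 0.0888 for FNTB), nor did FNTB with the replicate number as a block (0.0511).

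Genes for mitochondrial enzymes that pass electrons to ubiquinone were higher in 5 of 11 cases and lower in 0, against 17.3% and 10.3% of all genes, with a median log2 difference of 0.38. SQOR, which oxidises hydrogen sulfide with ubiquinone as acceptor, was at 71.2 ± 10.4 against 34.4 ± 0.833 FPKM, 2.07-fold higher (means with SD, n = 3 each; limma adjusted p = 0.00203). The electron transfer flavoprotein subunits of fatty acid oxidation were higher together, ETFB at 21.9 ± 2.30 against 12.4 ± 1.44 FPKM (limma adjusted p = 0.00530) and ETFA at 16.0 ± 1.17 against 10.4 ± 0.752 FPKM (limma adjusted p = 0.00786). Their oxidoreductase ETFDH, which hands the electrons on to ubiquinone, was at 4.97 against 4.98 FPKM (limma adjusted p = 0.990). SDHA, the flavoprotein of succinate dehydrogenase, was 1.29-fold higher (limma adjusted p = 0.0390), a call that held in 2 of the 6 fits without 1 library (limma adjusted p up to 0.141). It was lost with the replicate number as a block (limma adjusted p = 0.0640) and under the 3 rescalings (0.0646 to 0.0773). SDHC of the same complex was the fifth, 1.40-fold higher (limma adjusted p = 0.0392), a call that held in 1 of the 6 fits without 1 library (up to 0.127).

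Around AIFM2, 2 of 8 genes of quinone reduction, the AIF family and N-myristoylation were higher and 0 lower, with a median log2 difference of 0.28; the shares of all genes were 17.3% and 10.3%, so 2 of 8 is near the whole table's. The cytosolic quinone reductase NQO1 was at 165 ± 21.9 against 80.3 ± 3.10 FPKM (means with SD, n = 3 each; limma adjusted p = 0.00166). NMT1, an N-myristoyltransferase of the kind that lipidates AIFM2, was at 18.1 ± 0.173 against 13.6 ± 0.674 FPKM (limma adjusted p = 0.0163). Its call held in 3 of the 6 fits without 1 library (limma adjusted p up to 0.0596). AIFM1, the mitochondrial member of the AIF family, was at 22.4 against 15.3 FPKM and did not pass (log2 difference 0.51, limma adjusted p = 0.0603), with the sign opposite to that of AIFM2.

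Genes that follow mitochondrial content were mixed: limma called 4 of 12 higher and 1 lower, and 7 did not pass, with a median of 0.08, where 17.3% and 10.3% of all genes were called. The outer membrane channel VDAC1 was 1.72-fold higher (limma adjusted p = 0.00490), the chaperonin HSPD1 1.52-fold higher (limma adjusted p = 0.0154) and the prohibitin PHB 1.47-fold higher (limma adjusted p = 0.0158). The matrix chaperone HSPA9 was lower, at 82.6 ± 6.32 against 118 ± 13.1 FPKM (means with SD, n = 3 each; limma adjusted p = 0.0163). The call of VDAC1 held in each of the 6 fits without 1 library; those of HSPD1, PHB and HSPA9 held in 5, 4 and 3. TIMM23 of the import channel was the other gene called higher (limma adjusted p = 0.0195), in 1 of those fits (limma adjusted p up to 0.0702 in the others). The citrate synthase gene CS was at 3.38, 3.90 and 30.95 FPKM in the NC-titled libraries, so 1 library can stand far from the others. The same was seen in the lists above for FDX2 (20.6, 18.7 and 3.84 FPKM) and GPD2 (4.08, 0.694 and 0.667 FPKM) in the SPIN1-titled libraries. SDHD was at 7.49, 19.0 and 20.5 FPKM in the NC-titled ones. Whether a shift in the amount of mitochondria takes part in the differences of the synthesis genes was not tested.

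**Figure D4:**
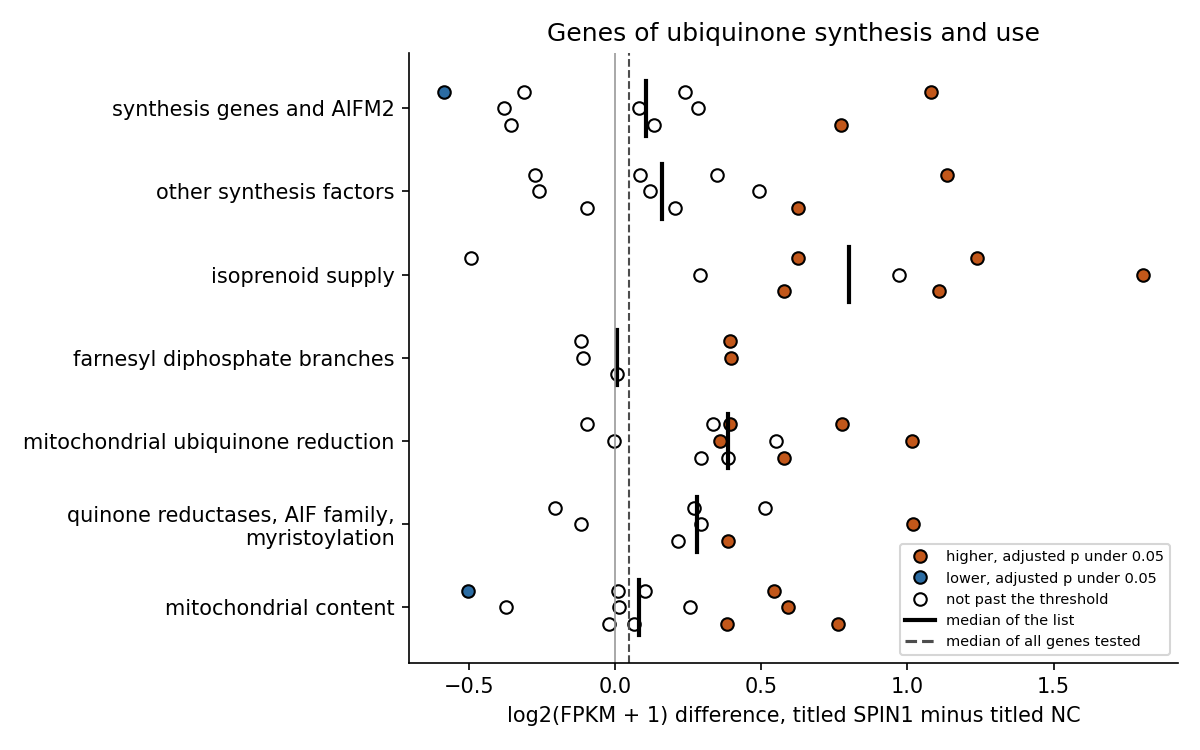
Difference of log2(FPKM + 1), titled SPIN1 minus titled NC, for the 10 genes (top row) and the 6 lists of related genes; each circle is a gene, filled where its adjusted p was under 0.05, and the vertical bars are list medians. The isoprenoid supply row has the highest median (0.80), while the synthesis genes and AIFM2 spread to both sides of the median of all genes tested (0.05).

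The sign of each of the 10 differences was the same in every alternative in which the gene was tested, and PDSS1 passed in all 17. COQ3 passed in 13 of 17 and COQ9 in 10. AIFM2, PDSS2 and COQ5 each passed in 6, among them the 3 rescalings and the fit with library weights, and COQ4 in 3. COQ2, COQ6 and COQ7 passed in none. After median scaling, quantile normalization or scaling to the nuclear genes 4 of the 10 genes were lower (COQ9, AIFM2, PDSS2 and COQ5) and 2 higher. Of all genes, 13.0% were then lower and 14.8% higher with median scaling, 14.2% and 14.4% with quantile normalization and 11.6% and 14.6% with scaling to the nuclear genes. Those rescalings thus shifted the balance over all genes, from 1914 higher and 1139 lower to 1640 and 1439 with median scaling and to 1593 and 1572 with quantile normalization. With library weights 4 of the 10 were lower and 3 higher, where 20.8% and 28.1% of all genes were called.

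**Figure D5:**
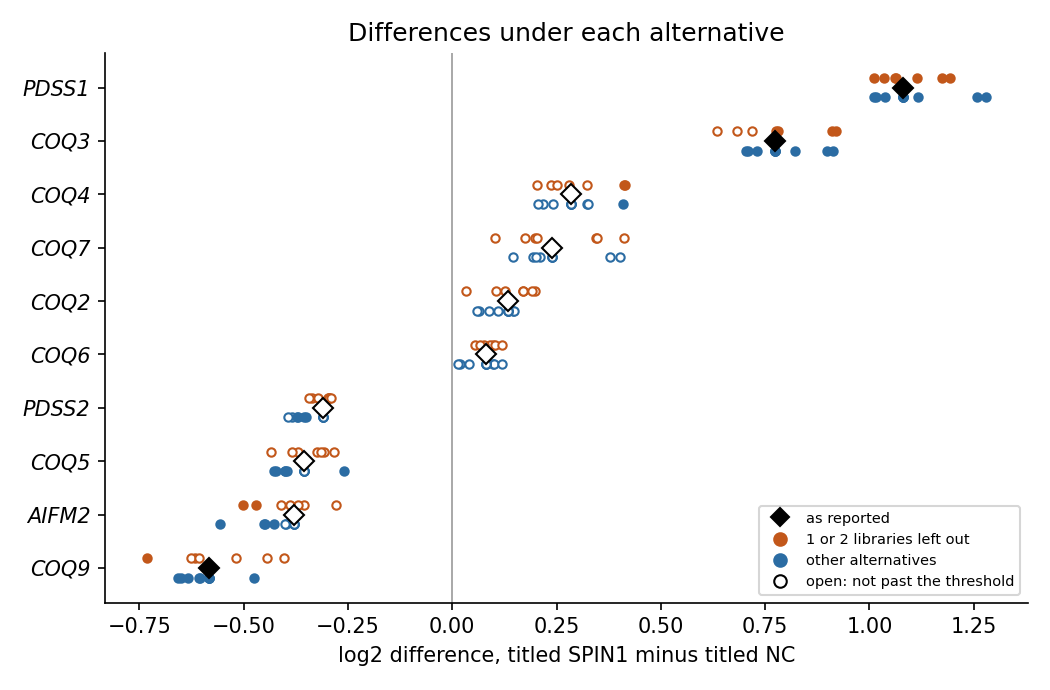
Log2 difference of each of the 10 genes as reported (diamonds), in the fits that left out 1 or 2 libraries (upper circles) and in the other alternatives (lower circles); filled symbols had an adjusted p under 0.05. PDSS1 stays between 1.01 and 1.28, and no gene crosses 0.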

How the data were processed

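Poly(A) RNA was made into strand-specific libraries by the dUTP method, per the labels' protocols. The submitters' processing notes name FastQC, cutadapt, HISAT2, StringTie and hg19, without versions or settings. The authors deposited FPKM per gene, per the file headers. For every gene the larger group mean reached 0.5003 FPKM, a filter seen in the values. Low values showed no steps of whole reads (at most 4 ratios of libraries within 0.02 of each other on the log2 scale), so the depth is unknown, no counting interval is given, and precision rests on the spread of 3 libraries per group. Titles gave the groups and replicate numbers.

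Genes averaging under 0.5 FPKM (253) were left out. R 4.3.3 with limma 3.58.1 and statmod 1.5.0 was used to fit log2(FPKM + 1) over the whole remaining table, with trend and robust moderation. The threshold was an adjusted p of 0.05 (Benjamini-Hochberg, over all of these genes). Folds are ratios of mean FPKM; log2 differences are titled SPIN1 minus titled NC. The fit was tested on simulated data with 11061 genes. It recovered 23.9% of 67 genes changed by 0.5, 70.1% of 67 changed by 1 and 93.9% of 66 changed by 2 on the log2 scale, with 9 false calls among 134. The simulated noise was independent between genes, and the share of changed genes was far below the 27.6% called in the data. These rates need not hold for the real comparison.

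The 10 genes and the lists were chosen with earlier results of these data known; 2 genes of the lists are not reported here and were left out of the counts and medians. Named were all 10 genes, up to 4 called genes of each of 6 lists with the smallest adjusted p, the 3 genes most like AIFM2, and others named after their values were seen. The 17 alternatives changed the pseudocount (0.1, 0.01), the filter (none, or an average of 2 FPKM or more), the scaling (median, quantile, nuclear genes), the variance model (plain, or with library weights) and the design (replicate block), or left out each library in turn or both numbered 1. Python 3.11.15 and matplotlib 3.10.9 drew the figures.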

Additional observations from a re-analysis of the deposited data

How the results depend on the processing

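Of 169 alternative values for the 10 genes, 137 kept sign and side of the threshold, 11 lost the call, 21 gained it and 0 turned sign. Among the 10 genes, the count called lower (1 as reported) was 4 with median scaling, quantile normalization, scaling to the nuclear genes or library weights, 3 with a filter at 2 FPKM and 2 without trend and robust moderation. Library weights also gave 3106 higher and 2304 lower over all genes, and 3 lower among the listed genes (1 as reported). Leaving out each library in turn gave 1128 to 2045 higher and 641 to 1251 lower over all genes, 1 to 2 higher and 0 to 1 lower among the 10, and 12 to 20 higher and 0 to 3 lower among the listed genes (20 and 1 as reported). ALKBH3 was at 10.1 ± 2.54 FPKM in the SPIN1-titled libraries against 12.1 ± 2.27 FPKM, with overlapping groups (log2 difference -0.26, limma adjusted p = 0.381). Its level does not check the labels either. Without both libraries numbered 1 the difference of ALKBH3 turned sign to 0.059 and did not pass (limma adjusted p = 0.737). With the replicate number as a block, 2 of the 10 genes were higher and 1 lower, as reported, and 2048 and 1251 over all genes. Same-numbered libraries correlated in their deviations at 0.22, 0.06 and 0.15, and 5 of 6 libraries correlated best with their own number. These 6 comparisons draw on the same correlations and are not independent. NC-titled replicate 2 correlated better with SPIN1-titled replicate 3 (0.08) than with its own number. The numbers may mark a pairing, which these values do not settle. The main fit has no block because no label says that a number marks a shared culture or day. With 3 libraries per group and unknown depth, differences of low genes such as COQ7 are poorly bounded, and 3 against 3 cannot reach an exact permutation p under 0.1.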

Other observations

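Among 8575 genes averaging 2 FPKM or more outside the 10, the pattern of AIFM2 over the 6 libraries was most like that of ALG2, VPS45 and PAPD4 (Pearson r = 0.997, 0.994 and 0.993 of log2(FPKM + 1)), given as a description; 59 genes had an r above 0.95. Like AIFM2, all 3 were lowest in SPIN1-titled replicate 2 and, among the SPIN1-titled libraries, highest in replicate 1. This order and the lower level follow from the choice by r, so the p-values below are descriptions as well. ALG2, a mannosyltransferase of N-glycan precursor assembly, was at 11.7 ± 2.71 FPKM in the SPIN1-titled libraries against 18.3 ± 0.769 FPKM (means with SD, n = 3 each; limma adjusted p = 0.0308). VPS45, which controls membrane fusion at endosomes, was at 4.31 ± 0.428 against 5.03 ± 0.122 FPKM and did not pass (limma adjusted p = 0.224). PAPD4, a cytoplasmic poly(A) polymerase, was at 2.15 ± 1.30 against 5.25 ± 0.319 FPKM (limma adjusted p = 0.0411). The calls of ALG2 and PAPD4 held in 1 and 2 of the 6 fits without 1 library.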
